A study of Homo sapiens with 10 samples.

Results

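The clustered protocadherins are cell adhesion proteins encoded by tandem arrays of genes on human chromosome band 5q31. All protein-coding genes of the alpha, beta and gamma arrays were taken by their symbols from GENCODE v44 mapped to GRCh37, which gave 53 members of 20098 protein-coding genes on chromosomes 1 to 22 and X. They were 15 alpha genes, 16 beta genes and 22 gamma genes, and all lay on the plus strand within chr5:140165221-140892544. The promoter of each gene was its most 5′ annotated start site widened by 500 bp on either side.

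Each alpha and gamma gene has its own large first exon, called the variable exon, which is spliced to 3 constant exons shared by the whole array, whereas beta genes are mostly a single coding exon. In neurons, each cell switches on its own choice of promoters, and the combination of protocadherins on the surface helps a neuron to tell its own branches from those of other cells. The C-type genes PCDHAC1, PCDHAC2, PCDHGC3, PCDHGC4 and PCDHGC5 are known to follow a more even pattern of expression. A short conserved sequence element that holds the letters CGCT lies in most of the variable promoters, and the architectural protein CTCF is known to bind there together with cohesin. Promoter DNA methylation is known to silence these genes, and DNA methylation was not analysed here.

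The cells were MDAMB231, an established human triple-negative breast cancer line with mesenchymal features, grown without treatment. Chromatin was examined by FAIRE-seq, which recovers open DNA, and by ChIP-seq of H3K4me3 (a mark of active or poised promoters), H3K27Ac (a mark of active promoters and enhancers) and H3K4me1 (a mark of enhancers). There were 2 samples for each assay and an input sample for FAIRE and for ChIP, and each assay had 1 deposited list, which the authors made from the combined replicates. Values below therefore have no replicate error and no test was run between lists or groups of genes. The lists held 18019 H3K4me3 peaks, 37495 H3K27Ac peaks, 26771 H3K4me1 peaks and 46552 FAIRE peaks. A ChIP peak carried the peak caller's score, which is 10 times the negative log10 of the p-value, and a FAIRE peak carried its height as FindPeaks gave it. A promoter was counted when it shared at least 1 base with a peak, and an absent peak says only that none was called at the depth of these libraries.

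The label of the line was checked with marker promoters. All 5 genes expected to be marked (VIM, AXL, CD44, CAV1 and ZEB1) had both H3K4me3 and H3K27Ac peaks. Among all 20098 protein-coding promoters 11035 had both, 61.0% had H3K4me3 and 56.7% had H3K27Ac. Of 5 luminal or epithelial genes expected to be unmarked, ESR1 and CDH1 had no peak of any list. PGR (H3K4me3 score 400) and ESRP1 (2898) had H3K4me3 without H3K27Ac, and EPCAM had peaks of all 4 lists, with an H3K4me3 score of 1565, so 3 of the 5 went against the expectation for H3K4me3 and 1 for H3K27Ac.

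Promoter sequences are shown for the genes on which the results turn. They are the member with the highest H3K4me3 score in the alpha group (PCDHAC1), the beta group (PCDHB11) and the gamma group (PCDHGB1). PCDHA12, the last alpha gene of the row without peaks, was added after its values were seen as an example of an unmarked promoter. Each runs from 250 bases before to 50 bases after the start site on the plus strand of GRCh37, at chr5:140305634-140305933, chr5:140578933-140579232, chr5:140729416-140729715 and chr5:140254637-140254936 in the order printed. Capitals mark the letters CGCT on either strand and an 8-letter word of the gene's group, the most common there or the first in the alphabet of a tied pair, which is described further on.
PCDHAC1: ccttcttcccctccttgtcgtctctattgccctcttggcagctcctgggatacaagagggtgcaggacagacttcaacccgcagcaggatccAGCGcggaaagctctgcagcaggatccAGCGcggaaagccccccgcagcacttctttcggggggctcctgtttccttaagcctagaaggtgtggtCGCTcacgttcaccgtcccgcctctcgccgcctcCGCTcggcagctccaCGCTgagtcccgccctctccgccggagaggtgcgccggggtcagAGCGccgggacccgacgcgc
PCDHB11: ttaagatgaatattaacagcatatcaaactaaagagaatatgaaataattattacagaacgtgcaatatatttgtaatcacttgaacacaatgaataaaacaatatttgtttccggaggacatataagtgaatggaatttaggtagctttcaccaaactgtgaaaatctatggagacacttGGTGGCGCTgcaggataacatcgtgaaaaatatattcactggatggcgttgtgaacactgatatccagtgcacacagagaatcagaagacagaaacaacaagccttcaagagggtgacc
PCDHGB1: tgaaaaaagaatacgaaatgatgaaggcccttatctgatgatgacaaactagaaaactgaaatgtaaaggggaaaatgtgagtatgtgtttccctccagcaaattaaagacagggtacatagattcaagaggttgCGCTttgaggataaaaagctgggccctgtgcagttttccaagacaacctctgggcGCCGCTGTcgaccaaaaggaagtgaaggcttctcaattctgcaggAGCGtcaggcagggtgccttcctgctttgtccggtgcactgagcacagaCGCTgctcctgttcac
PCDHA12: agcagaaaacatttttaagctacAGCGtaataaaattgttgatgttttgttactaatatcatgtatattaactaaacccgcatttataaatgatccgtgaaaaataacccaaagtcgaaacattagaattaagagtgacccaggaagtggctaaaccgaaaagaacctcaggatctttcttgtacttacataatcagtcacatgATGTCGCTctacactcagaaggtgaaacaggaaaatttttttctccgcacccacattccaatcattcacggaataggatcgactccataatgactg

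Few protocadherin promoters carried marks. H3K4me3 peaks met 14 of 53 promoters (26.4%), against 61.0% of all protein-coding promoters. H3K27Ac peaks met 2 of 53 (3.77%), against 56.7%. FAIRE peaks met 4 of 53 (7.55%), against 28.3%, and H3K4me1 peaks met 0 of 53, against 9.22%. Only 2 members kept a FAIRE peak when FAIRE peaks lower than that list's median were left out, and the share of all protein-coding promoters fell likewise to 16.9%. In all, 39 of 53 promoters (73.6%) had no peak of any list, against 36.4% of all protein-coding promoters. Where the centre of the peak had to lie in the promoter window, H3K4me3 met 24.5% of members against 39.2% of all protein-coding promoters, a smaller gap. H3K27Ac then met 3.77% of members against 34.6%. H3K4me1 then met 0 of 53 members against 1.12%, and at that share a count of 0 shows no difference. Each of the 14 H3K4me3 promoters had a peak of its own. All H3K27Ac and FAIRE promoters were among these 14.

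**Figure D1:**
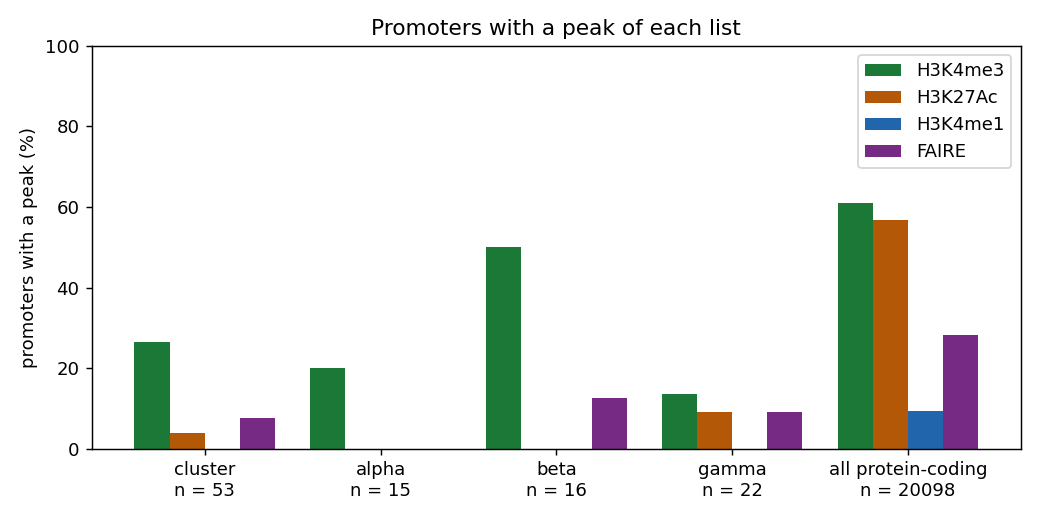
Share of promoters (%) that met a peak of each list, for the cluster, its alpha, beta and gamma groups and all protein-coding genes, with the number of genes under each group. H3K4me3 reached 8 of 16 beta promoters and 13.6% of gamma promoters, against 61.0% of all protein-coding promoters.

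The 3 groups differed in how many promoters were marked. Among the alpha genes 3 of 15 had H3K4me3 and none had H3K27Ac or FAIRE. The beta group was marked most often, with H3K4me3 at 8 of 16 promoters and FAIRE at 2, but H3K27Ac at none. Among the gamma genes 3 of 22 had H3K4me3 (13.6%), and 2 of these had H3K27Ac and FAIRE as well. None of the 12 gamma A genes had a peak of any list, whereas 2 of the 7 gamma B genes did. Of the 5 C-type genes, 3 had H3K4me3, a share near the 61.0% of all protein-coding promoters. None of the 5 had H3K27Ac or FAIRE, against 56.7% and 28.3% of all protein-coding promoters. No peak of any list was found at 36.4% of all protein-coding promoters. Whether the groups differ beyond chance was not tested.

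Among the alpha promoters, those with H3K4me3 were the 3 at the 3′ end of the array. The 12 genes from PCDHA1, the first of the array, to PCDHA12 had no peak of any list. PCDHA13, the last numbered alpha gene, had an H3K4me3 peak with a score of 349 (chr5:140261218-140262788). The C-type gene PCDHAC1 had a score of 1677 (chr5:140305071-140307425), the second highest of the cluster, and PCDHAC2, the last alpha gene, had a score of 142 (chr5:140345046-140346952). A stretch of 161 kb without a peak of any list (chr5:140100554-140261217) held all 12 unmarked promoters, and it was the longest such stretch on the map of the cluster and its 100 kb flanks. The start sites of these 12 genes lay between 6.33 kb (PCDHA12) and 80.1 kb (PCDHA3) from the nearest H3K4me3 peak.

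In the beta array, marked and unmarked genes alternated. PCDHB1, the first of the array, had no peak, and its nearest H3K4me3 peak was 9.73 kb away. PCDHB2 had a score of 590.4 and PCDHB3 a score of 198. The next 3 genes, PCDHB4 to PCDHB6, had no peak and lay in an empty stretch of 70.6 kb. PCDHB7 (137) and PCDHB8 (184) were marked, PCDHB16 beside them was not, and PCDHB9 (361), PCDHB10 (162) and PCDHB11 (804) followed. PCDHB11 was the strongest of the group (chr5:140578595-140580268). PCDHB12 was unmarked, PCDHB13 had the lowest score of the cluster (128), and PCDHB14 and PCDHB15, the last of the array, had no peak. FAIRE peaks met PCDHB9, with a height of 61.1, and PCDHB11, with a height of 38.0. The second of these was lower than the median height of 61.1 over the FAIRE list. The 5 genes annotated as pseudogenes of the cluster, which were looked at after the members' values were seen, had no peak at their starts.

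In the gamma array, a pair of B-type genes held the marks of active promoters. PCDHGB1 had the highest H3K4me3 score of the cluster, 1927 (chr5:140729315-140730868), with an H3K27Ac score of 216 and a FAIRE height of 62.7. PCDHGB2 had an H3K4me3 score of 943 (chr5:140739206-140740586), a higher H3K27Ac score of 623 and a lower FAIRE height of 45.3. These were the only members with peaks of 3 lists. PCDHGA4, whose start site lies between them, had no peak, although the nearest H3K4me3 peak was only 3.72 kb away. PCDHGA1, the first gamma gene, had no peak. The 13 genes from PCDHGA5 to PCDHGA12 in chromosome order had no peak of any list, and they lay in an empty stretch of 114 kb (chr5:140740829-140854852). The C-type gene PCDHGC3 had H3K4me3 with a score of 455 (chr5:140854853-140856768), and PCDHGC4 and PCDHGC5, the last gamma gene, were 7.80 kb and 11.9 kb from the nearest H3K4me3 peak.

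**Figure D2:**
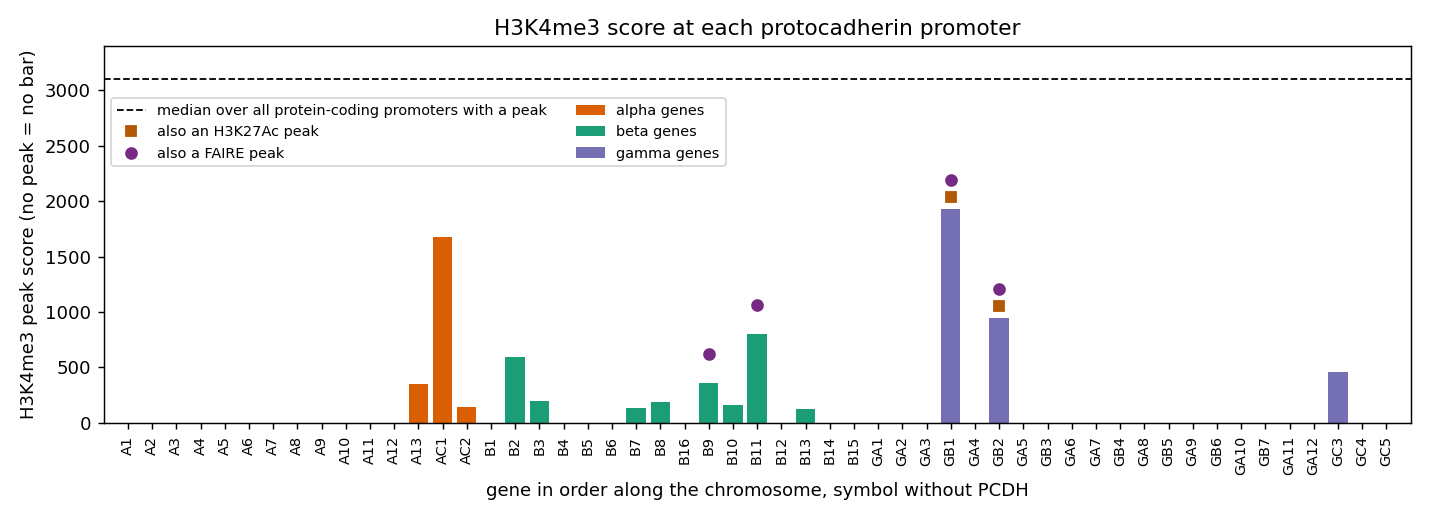
H3K4me3 score (vertical axis, no bar where no peak was called) at the 53 promoters in chromosome order, coloured by group, with marks above genes that also had an H3K27Ac or a FAIRE peak. The dashed line is the median of 3100 over all protein-coding promoters with a peak, and the highest member, PCDHGB1, reached 1927.

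The H3K4me3 peaks of the cluster had low scores and small widths beside the median of all marked promoters. The median score of the 14 members was 355, against 3100 over the 12252 protein-coding promoters with H3K4me3. The value 3100 was the most frequent score of the H3K4me3 list, where scores pile up near the upper end, and 81.8% of marked protein-coding promoters reached it or more but 0 members did. PCDHGB1 stood at the 10.5th percentile of scores at marked promoters, PCDHAC1 at the 9.18th and PCDHB13 at the 1.15th. The median width was 1563 bp in the cluster and 2962 bp over all marked promoters. Members ranged from 834 bp (PCDHB13) to 2355 bp (PCDHAC1). At the 2 promoters with H3K27Ac, the score was at the 7.25th percentile in PCDHGB1 and the 23.3rd in PCDHGB2. The FAIRE heights ranged from the 8.10th percentile in PCDHB11 to the 42.7th in PCDHGB1, with PCDHGB2 at the 16.2nd and PCDHB9 at the 40.4th.

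The H3K4me3 peaks lay over the start site. The centre of the peak was after the start site at 12 of 14 members (85.7%), close to the 79.3% of all marked protein-coding promoters. Over all 14 the median was 0.295 kb after it, and over all marked protein-coding promoters 0.31 kb. The peaks began 0.294 to 1.01 kb before the start site and ended 0.4 to 1.54 kb after it. The 4 FAIRE peaks had their centres closer to the start site, from 0.102 kb after it in PCDHB9 to a place before it in PCDHB11, PCDHGB1 and PCDHGB2. Over all protein-coding promoters with FAIRE the median centre was likewise near the start site (-0.094 kb, before it), and 30.3% had it after.

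**Figure D3:**
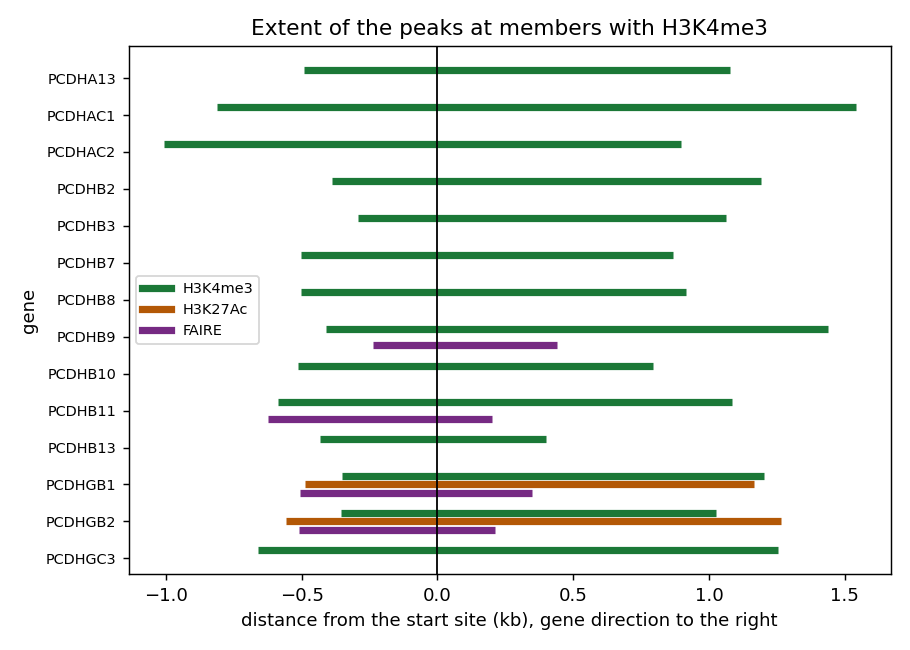
Extent of the H3K4me3, H3K27Ac and FAIRE peaks at the 14 members with H3K4me3, as distance from the start site (kb), with the direction of the gene to the right. All 14 H3K4me3 peaks span the start site, and H3K27Ac is drawn at PCDHGB1 and PCDHGB2 alone.

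Most marked members lacked acetylation. H3K27Ac was found at 2 of the 14 members with H3K4me3, against 90.1% of all protein-coding promoters with H3K4me3, and FAIRE at 4 of 14 (44.6% of all). Since the members' H3K4me3 scores were low, the comparison was repeated, after the values were seen, over the 1144 protein-coding promoters whose H3K4me3 score lay between the lowest and the highest member. Of these promoters 43.0% had H3K27Ac and 27.1% had FAIRE. The part of score in the lack of acetylation was not tested further. A score is not a measure of the share of cells or alleles with the mark, and a promoter marked in some cells of the culture cannot be told apart from one marked weakly in all.

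The CpG content of the promoters was compared with the marks, because H3K4me3 is known to favour CpG-rich promoters. The CpG ratio (observed over expected CpG in the 1 kb window) had a median of 0.775 in the alpha group, 0.492 in the beta group and 0.661 in the gamma group, against 0.686 over all protein-coding promoters. A ratio of 0.6 or more was found at 33 of 53 members (62.3%), close to the 59.7% of all protein-coding promoters. Of these 33 members 6 had H3K4me3, whereas 86.8% of all protein-coding promoters with such a ratio did. H3K27Ac met 79.2% and FAIRE 39.9% of the protein-coding promoters in this class. The median GC content of this class was 63.5%, against 44.4% in the whole cluster. The ratio therefore did not match members and other promoters in GC content. Of the 20 members with a lower ratio, 8 had H3K4me3, against 22.7% of such protein-coding promoters. All 8 were beta genes. The group with the lowest median ratio therefore had the most marked promoters. GC content was low in the cluster, with a median of 44.4% against 59.1%, and the C-type promoters stood apart with a median of 55.3%. The AT-rich windows of PCDHA9 and PCDHA11 sit at start sites annotated 610 bp and 3035 bp before the last start site of the same gene, and counting any annotated start site gave neither gene a peak.

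**Figure D4:**
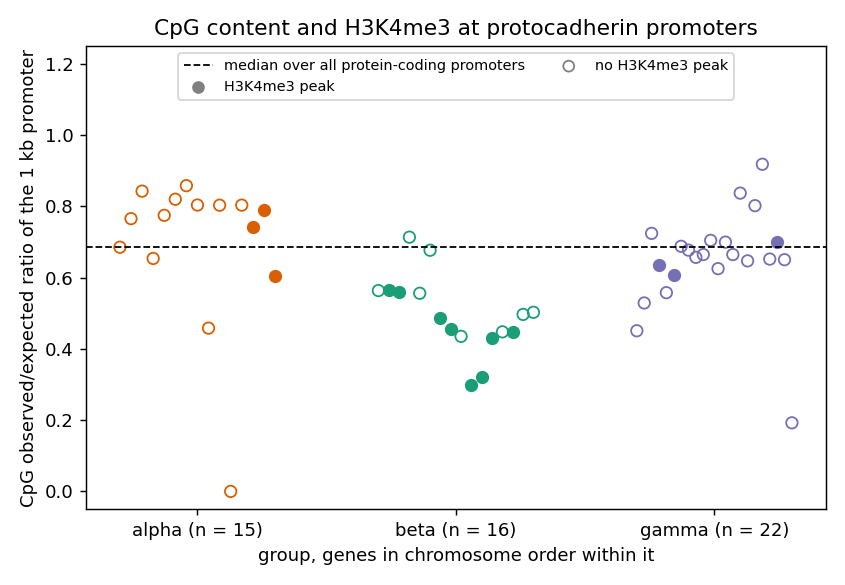
CpG observed/expected ratio of the 1 kb promoter of each member, by group and in chromosome order within it, filled where an H3K4me3 peak was called. The dashed line is the median of 0.686 over all protein-coding promoters, and the 8 marked beta promoters all lie under it.

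The 300 bases around the start site were searched for words. CGCT was present on either strand at 51 of 53 members (96.2%), but also at 77.0% of all protein-coding promoters, so these 4 letters alone set few promoters apart. Longer words around CGCT differed between the groups. GGTGGCGC was found on the gene's strand at 14 of 16 beta promoters and at 1.36% of all protein-coding promoters, and GTGGCGCT, which overlaps it, also at 14 beta promoters. ATGTCGCT was found at 10 of 15 alpha promoters and 0.204% of all, and GATGTCGC, which overlaps it, also at 10. Of the 5 most common alpha words, 1 held all of CGCT. GCCGCTGT was found at 11 of 22 gamma promoters and 0.95% of all. Each of these 5 words was found in 1 group only, but some other common words also occurred in a second group. CGCTGCAG was found at 11 beta and 1 gamma promoter, ATGATGTC at 9 alpha and 1 beta, and CGCTGTTG at 8 gamma and 1 beta. The beta word began at a median of 58.5 bases before the start site, the alpha word at 46 and the gamma word at 60.

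The words were set beside the marks. All 8 beta promoters with H3K4me3 had GGTGGCGC, and so did 6 of the 8 without it. The 2 beta genes that lacked it, PCDHB1 and PCDHB6, were unmarked. In the alpha group the 10 genes with ATGTCGCT were all unmarked, and the 3 marked genes did not have it. Of the marked genes, PCDHAC1 and PCDHAC2 are C-type, and 0 of the 5 C-type genes had this word. The unmarked genes PCDHA9 and PCDHA11 also lacked it. In the gamma group GCCGCTGT was found at 2 of 3 marked and 9 of 19 unmarked genes. A match is a description of letters and binding was not analysed here. The letters CCCTC were present on either strand at 16 of 53 members (30.2%) and at 74.0% of all protein-coding promoters. So short a word made of C and T is not a search for CTCF sites. The promoters also differed in GC content (median 44.4% in the cluster, 59.1% over all protein-coding promoters). The 6 letters GGTGGC, the start of the beta word, were searched on either strand after the sequences were seen. They were found at 15 of 16 beta, 1 of 15 alpha and 3 of 22 gamma promoters and at 26.2% of all protein-coding promoters.

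Some promoters are near copies of each other, and reads that fit several places are lost when reads of low mapping quality are removed. At 95% identity or more over 50 bases or more, 12 of 53 windows aligned elsewhere in the genome in part or whole. The windows of PCDHB8 and PCDHB13 aligned over 100% of their length, with the longest alignment to each other, and both genes had H3K4me3 peaks, among the weaker ones of the cluster. PCDHGB4 and PCDHGB5 aligned elsewhere over 65.0% and 65.3% of their windows, and PCDHGB6 and PCDHGB7 over 60.9% and 57.4%, in each pair with the longest alignment to the other gene, and these 4 genes were unmarked. The remaining cases were 5 unmarked alpha genes, which aligned over 28.0% (PCDHA3) to 39.7% (PCDHA2), and PCDHGA6, unmarked, with 6.39%. In all, 2 of the 14 marked and 10 of the 39 unmarked members had any such stretch, and 29 unmarked members had none. Its part in the absence of peaks was not tested.

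Per length of chromosome, the cluster had more H3K4me3 peaks and fewer of the other lists than chromosomes 1 to 22 and X. From the first promoter to the end of the last gene, 727 kb held 19 H3K4me3 peaks, or 2.61 per 100 kb, against 0.593 per 100 kb over chromosomes 1 to 22 and X. H3K27Ac had 0.825 peaks per 100 kb (1.23 over these chromosomes), FAIRE 0.962 (1.53) and H3K4me1 0.275 (0.882). These densities do not allow for the 53 member promoters that lie close together in the 727 kb. Counted by promoter, H3K4me3 met a smaller share of members (26.4%) than of all protein-coding promoters (61.0%). The alpha stretch had 4 H3K4me3 peaks and 1 H3K4me1 peak but 0 H3K27Ac and 0 FAIRE peaks in 227 kb. The beta stretch was the densest in H3K4me3, with 4.53 per 100 kb, and the gamma stretch had 1.64 per 100 kb. H3K4me3 had 4.02 peaks per 100 kb in the flank before the cluster, more than in the cluster itself, and 1 peak in the flank after it. The flank before it had no H3K4me1 peak, and the flank after it had 5, which covered 21.9% of its length against 3.3% of chromosomes 1 to 22 and X. Each flank had 4 H3K27Ac peaks, which covered 10.9% of the flank before the cluster and 17.7% of the flank after it, against 1.53% of the cluster.

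**Figure D5:**
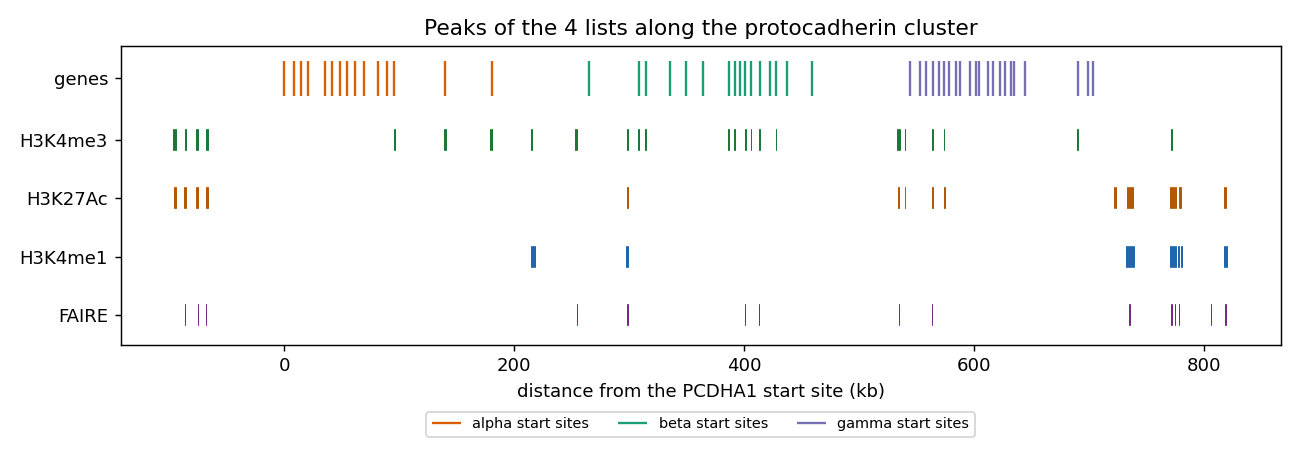
Peaks of the 4 lists, drawn to scale along the cluster and 100 kb on either side as distance from the PCDHA1 start site (kb), with the start sites of the 53 members above them. The alpha genes up to PCDHA12 lie in the empty stretch of 161 kb, H3K27Ac peaks lie in both flanks, and 5 H3K4me1 peaks lie in the flank after the gamma genes.

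Of the 19 H3K4me3 peaks within the cluster, 14 lay at member promoters. One more lay in the alpha array, in the intron before the last constant exon (chr5:140380634-140382517, score 510), and it met an H3K4me1 peak (chr5:140380589-140384743, score 101) but no H3K27Ac or FAIRE peak. An H3K27Ac peak lay in the matching intron of the gamma array (chr5:140887290-140890082, score 276), without any other list. Enhancers of the alpha genes are known in the intron before the last constant exon and downstream of that exon, and these peaks were not matched to them here.

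Between the alpha constant exons and PCDHB1, an H3K4me3 peak (chr5:140419044-140421226, score 224) met a FAIRE peak (chr5:140420638-140421283, height 89.9), at the start of an annotated transcript other than the members. The FAIRE peak was higher than 79.8% of the FAIRE list and higher than all 4 FAIRE peaks at members. No H3K27Ac or H3K4me1 peak was called there. The middle 300 bases of the FAIRE peak (chr5:140420811-140421110, plus strand of GRCh37) are shown because this is the open site nearest to the alpha array on its 3′ side. Capitals mark CGCT on either strand and the 6 letters GGTGGC on either strand, which are the start of the beta word. The whole beta word GGTGGCGC is not in these 300 bases, and GGTGGC was found at 26.2% of all protein-coding promoters.
FAIRE peak: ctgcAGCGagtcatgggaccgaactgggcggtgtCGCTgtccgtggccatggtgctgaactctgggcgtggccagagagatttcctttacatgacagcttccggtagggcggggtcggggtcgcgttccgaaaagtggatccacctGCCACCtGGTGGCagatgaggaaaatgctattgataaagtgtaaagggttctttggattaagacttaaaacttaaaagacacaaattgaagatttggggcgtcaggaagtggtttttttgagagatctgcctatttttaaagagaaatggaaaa

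A site with peaks of all 4 lists lay between PCDHB1 and PCDHB2, centred 9.78 kb before the PCDHB2 start site for H3K4me3 (chr5:140463624-140465208, score 992). It had an H3K27Ac score of 138, an H3K4me1 score of 57.6 and a FAIRE height of 66.3, and no annotated start site within 500 bp. It was the only place in the cluster with all 4 lists. In the flank after the cluster, in the gene body of DIAPH1, a formin that nucleates actin filaments, an H3K4me1 peak of 8468 bp (chr5:140897122-140905589) had a score of 1418, higher than 99.9% of its list. An H3K27Ac peak with a score of 3100 and FAIRE peaks with heights of 156 and 99.3 lay over it, and its start was 28.5 kb after the PCDHGC5 start site. Which genes these sites act on was not tested.

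Of 17 genes of other families among and beside the array, 14 had H3K4me3 (61.0% of all protein-coding promoters), 13 H3K27Ac (56.7%) and 9 FAIRE (28.3%). Fewer peaks than genes lay behind these counts. HARS1 and HARS2 shared their peaks, as did IK and NDUFA2, and HDAC3 and RELL2. TAF7, a subunit of the general transcription factor TFIID, lies between the beta and gamma arrays and had an H3K4me3 score of 3100, an H3K27Ac score of 1710 and a FAIRE height of 68.5. SLC25A2, a mitochondrial ornithine carrier gene beside it, had no peak. The other genes without H3K4me3 were ZMAT2, where an H3K4me3 peak with a score of 3199 (chr5:140079313-140081421) lay outside the promoter window in the gene, and DND1, a germ cell RNA-binding protein. The histidyl-tRNA synthetase genes HARS1 and HARS2, which share a divergent promoter, had an H3K4me3 score of 3100.

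Of the 12 non-clustered protocadherins, which lie elsewhere in the genome or farther along chromosome 5, 8 had H3K4me3 (61.0% of all protein-coding promoters), 4 H3K27Ac (56.7%), 1 H3K4me1 (9.22%) and 3 FAIRE (28.3%). The genes without H3K4me3 were PCDH8, PCDH11X, PCDH15 and PCDH19. Of the 8 marked genes, 4 had H3K4me3 scores within the range of the clustered members, namely PCDH10 (160.2, width 1567 bp), PCDH18 (646, 2113 bp), PCDH17 (989, 2277 bp) and PCDH20 (1146, 2257 bp), and 3 of these 4, all but PCDH20, lacked H3K27Ac. Of all 1144 protein-coding promoters in the score range of the clustered members, 43.0% had H3K27Ac, so many others lacked it as well. PCDH1 lacked H3K27Ac at an H3K4me3 score of 3100, outside that range. All 13 genes of architectural and silencing factors known at the cluster, among them CTCF, the cohesin genes RAD21, SMC1A, SMC3, STAG1 and STAG2, the cohesin loader NIPBL and the silencing factors SMCHD1, DNMT3B and SETDB1, had both H3K4me3 and H3K27Ac at their promoters, as did 11035 of all 20098 protein-coding genes. Their RNA and protein levels were not analysed here.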

How the data were processed

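MDAMB231 cells were examined by FAIRE-seq and by ChIP-seq of H3K4me3, H3K27Ac and H3K4me1, with 2 samples for each assay and an input for FAIRE and for ChIP. The authors aligned single-end reads to hg19 and discarded duplicate and poorly mapped reads. Each list used here pools the 2 replicates of its assay, which the authors had also assessed one by one. The deposited score of each ChIP peak comes from MACS, called by the authors against input. The deposited signal of each FAIRE peak is the height that the authors obtained with FindPeaks, and only significant peaks were kept. Depth per sample is not given in the peak lists.

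Files and reference share one build, and 0 peaks ended beyond a chromosome of the reference. Peak starts were read as counted from 0. Start sites came from GENCODE v44lift37. Overlap was counted in Python (numpy 2.4.6, pandas 2.3.3) and tested on simulated data against bedtools 2.31.1, where 0 of 3000 intervals differed. Windows were aligned with blastn 2.17.0. Figures were drawn with matplotlib 3.10.9.

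Genes were named when a member had a peak, was C-type, or was the first or last of its array. Related genes were named when they lay between members or differed from most of their list. Other genes were chosen after their values were seen. The members and lists were chosen with earlier results of these data known. Alternatives were 250 bp and 1 kb windows, the start site or the peak centre alone, any annotated start site, and stricter peaks. Some promoter sequences are not reported here.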

Additional observations from a re-analysis of the deposited data

How the results depend on the processing

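The counts of promoters with a peak were recomputed under 6 alternatives for each list, 24 in all, and 23 stayed within 1.5 times the main count. H3K4me3 met 14 members under each alternative but one, and 13 where the centre of the peak had to lie in the promoter window, which left out PCDHB9. H3K27Ac met 2 members and H3K4me1 met 0 under every alternative run. Some of these counts could not have fallen. The stricter p was a score of 100, and the lowest member scores were 128 for H3K4me3 and 216 for H3K27Ac. For H3K4me1 the main count was already 0. FAIRE met 4 members under 5 alternatives and 2 when peaks under the median height of the list were left out, which removed PCDHB11 and PCDHGB2 by construction. The share of all protein-coding promoters moved more. With the peak centre in the window it was 39.2% for H3K4me3 (24.5% of members), 34.6% for H3K27Ac and 1.12% for H3K4me1. For H3K4me1 it was also 5.37% with the start site in the peak, 14.4% with any start site and 4.34% at the stricter p, and for FAIRE 16.9% with the higher peaks. At a share of 1.12%, a count of 0 of 53 members shows no difference.

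No paired analysis was possible because the lists used here each come from combined replicates, and values of single replicates were not analysed here. The reads were not analysed here, so signal under the caller's threshold is not seen, nor are reads that the mapping filter removed at near-identical promoters. The upper end of the score does not rank strong peaks, although every member lies below it.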
